A study of Mus musculus with 30 samples.

Results

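Akkermansia is a genus of anaerobic bacteria of the phylum Verrucomicrobiota, followed here in mouse stool under the taxon label g__Akkermansia. The genus was chosen by values measured in these same libraries, so its reads, shares and folds are described here and carry no test. Its members are the rows of the deposited table whose taxon label holds g__Akkermansia and that have reads in at least 1 library. There were 12 such rows in the table, of which 2 had reads and 10 had none, among 953 sequence variants with reads in all. A sequence variant is 1 distinct amplicon sequence. The 2 variants held 1859 reads, 0.166% of all non-mitochondrial reads.

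The study set female Gpr15l-/- mice (KO) beside wild-type mice (WT) in 6 groups of 5 stool libraries. At weaning, at about 4 weeks of age, libraries 1 to 5 were KO and libraries 6 to 10 were WT. After 4 to 5 weeks in mixed-genotype cages of 2 to 7 mice (co-housing), libraries 11 to 15 were KO and 16 to 20 were WT. After the genotypes were parted for 6 more weeks (re-separation), libraries 21 to 25 were KO and 26 to 30 were WT. No Cre driver or tissue-limited deletion is named for the KO mice. Gpr15l encodes a peptide made by epithelium of gut and skin that binds GPR15, a receptor which guides lymphocytes to the large intestine. The genotype of a library rests on its label, because reads of a bacterial marker gene hold no mouse sequence of Gpr15l.

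Akkermansia lives in the mucus that covers the epithelium of the large intestine. It is known for cutting mucin, the heavily glycosylated protein of that layer, and for growing on the sugars and amino acids released, with short-chain fatty acids as products. Other bacteria hold different places at the same surface. Helicobacter and Mucispirillum are motile spiral residents of the mucus, and Candidatus Arthromitus, the segmented filamentous bacterium, attaches to the epithelium of the ileum. Reads of the 16S rRNA gene, a marker of bacterial identity, show which genera are there and do not measure mucin degradation.

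Libraries held 10560 to 73776 reads, and the re-separation libraries were deeper than most of the others. A share is a percent of the reads left after 4 variants named as mitochondria were set aside. The first 20 libraries had reads of 485 variants and the last 10 of 468, with 0 variants in common, so the time point cannot be told apart from the set of libraries wherever re-separation is set against an earlier time. Age and co-housing likewise cannot be told apart. The labels name no cage, litter or individual mouse, so a p-value here reflects the spread among the samples alone, which may be technical in part. Intervals and floors cover counting error only, because amplified reads that carry no molecular identifier do not count single molecules.

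At weaning, Akkermansia was found in 5 of 5 KO libraries and in 1 of 5 WT libraries. The KO libraries held 1201 reads (library 1), 249 (library 2), 12 (library 3), 336 (library 4) and 22 (library 5). Against these, the WT libraries held 4 reads in library 10 and 0 in libraries 6 to 9. The groups did not overlap, with 12 reads in the lowest KO library and 4 in the highest WT library.

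As shares, the KO libraries held 5.68% (exact 95% binomial interval 5.38 to 6.00), 0.731% (0.643 to 0.827), 0.0705% (0.0364 to 0.123), 1.02% (0.910 to 1.13) and 0.210% (0.132 to 0.317) in the order of libraries 1 to 5. Library 10 of WT held 0.0106% (0.00289 to 0.0271). Akkermansia ranked 7 of 34 genera with reads in library 1, 11 of 47 in library 4 and 39 of 51 in library 3. The intervals of the 5 KO libraries did not overlap one another, so these libraries differed from each other beyond counting error.

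The KO mean was 1.54% ± 2.35 and the WT mean 0.00212% ± 0.00474 (SD, n = 5 each). The median of the KO libraries was 0.731%, and the SD was larger than the mean, with library 1 holding 66.0% of the group's Akkermansia reads. Without library 1 the KO mean was 0.506% ± 0.442. The ratio of the means, KO over WT, was 728, and 239 without library 1. Summed over libraries, KO held 1820 of 115837 reads and WT 4 of 149535 reads, a ratio of shares of 587 (counting interval 229 to 2158). The WT side of each ratio rests on 4 reads of 1 library. In stool DNA, fewer Akkermansia cells and fewer 16S copies or less PCR product per cell cannot be told apart.

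**Figure D1:**
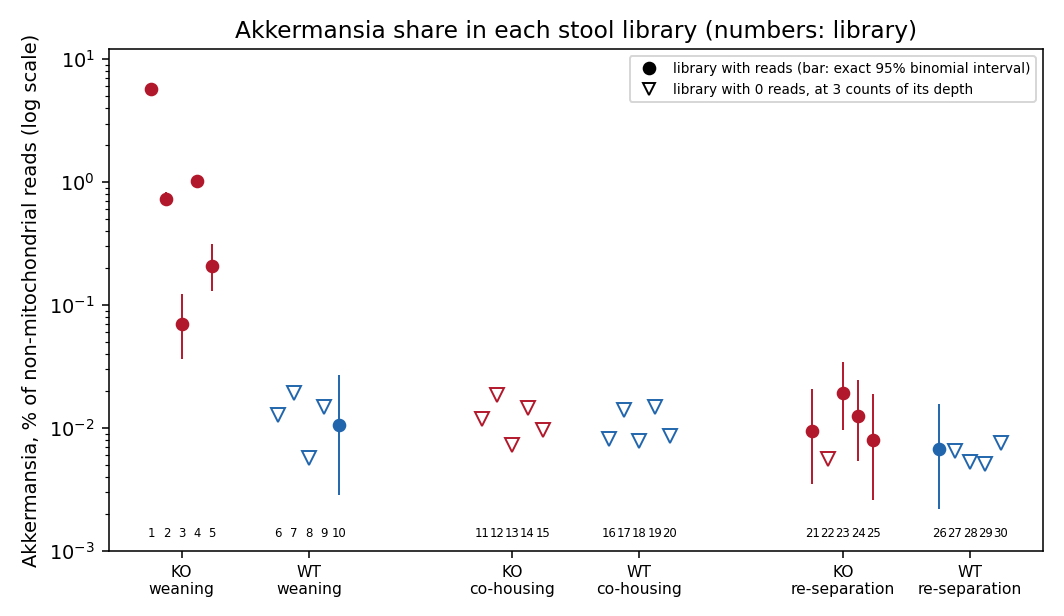
Share of Akkermansia in each of the 30 libraries, in percent of non-mitochondrial reads on a log axis, KO (red) left of WT (blue) at each time. Filled points are libraries with reads and their exact 95% binomial intervals, and open triangles mark libraries with 0 reads at 3 counts of their depth. The 5 KO weaning libraries, from 0.0705% to 5.68%, lie above every other library.

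After co-housing, Akkermansia had 0 reads in all 10 libraries of both genotypes. In KO this was 0 of 134237 reads, which allows a share of up to 0.00224%, and in WT 0 of 150924 reads, which allows up to 0.00199%. Over the 10 libraries together the limit was 0.00105% of 285161 reads. A single library allowed from 0.00729% to 0.0187% in KO and from 0.00789% to 0.0147% in WT, each set by its depth.

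Set against weaning within KO, co-housed libraries stood at least 124.5-fold lower, with the floor at 3 counts per library, and at least 40.9-fold lower when library 1 was left out of the weaning mean. The bound assumes that low counts were kept in the deposited table. Only 5 of its 5740 nonzero counts were equal to 1 and 126 were between 1 and 3, so counts of a few reads may have been removed earlier, and the floors and bounds would then be too tight.

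The depth of a single co-housed library was ample for the weaning levels of KO and marginal for lower ones. At 0.0705%, the lowest KO weaning share, a co-housed library would have held 11.3 to 29.0 reads, and the 10 together 201 reads. At 0.0106%, the share of library 10, the expected number was 1.70 to 4.36 reads a library and 30.2 in all, with 5 of the 10 libraries expecting under 3 reads. At 0.00954%, the median of the re-separation libraries with reads, it was 1.53 to 3.92 reads a library and 27.2 in all. At that level 6 of the 10 libraries would expect under 3 reads. The binomial probability of 0 reads was 0.0198 to 0.216 per library, so a single library could have missed a share of that size. The limit over the 10 together, 0.00105%, was below that share, provided that low counts were kept. The 4 WT weaning libraries without reads would have held 11.0 to 36.9 reads at the lowest KO share and 1.49 to 5.00 at the re-separation median.

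**Figure D2:**
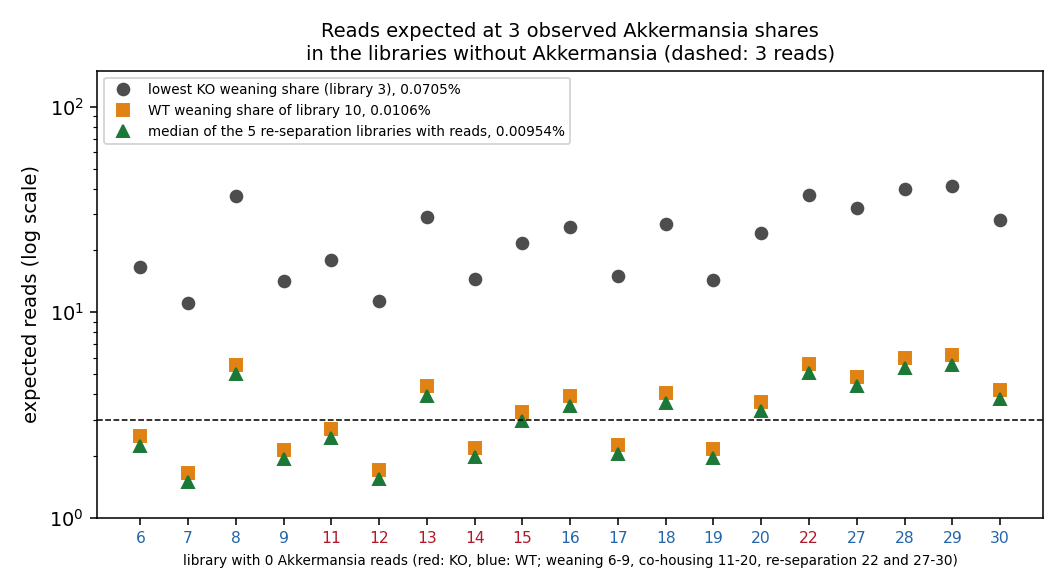
Expected number of Akkermansia reads (log axis) in each of the 19 libraries with 0 reads, had their share been one of 3 observed values, with a dashed line at 3 reads. At the lowest KO weaning share every library lies above the line, from 11.0 reads upward, and at the lower shares several lie below it.

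After re-separation, Akkermansia was found at low level in 4 of 5 KO libraries and in 1 of 5 WT libraries. The KO libraries held 6 reads (library 21), 0 (library 22), 11 (library 23), 8 (library 24) and 5 (library 25), against 5 reads in library 26 and 0 in libraries 27 to 30 of WT. As shares these were 0.00954%, 0.0194%, 0.0126% and 0.00808% in the KO libraries with reads and 0.00680% in library 26. The groups overlapped, since library 22 of KO held 0 reads while library 26 of WT held 5.

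The KO mean was 0.00993% ± 0.00706 and the WT mean 0.00136% ± 0.00304 (SD, n = 5 each), a ratio of 7.30, or 5.56 without the highest KO library. Summed over libraries, KO held 30 of 298059 reads and WT 5 of 273961 reads, a ratio of shares of 5.52 (counting interval 2.12 to 18.2), with WT resting on library 26 alone. The KO mean of re-separated mice compares with 1.54% at weaning, which was 155 times as high, or 51.0 times without library 1. The genus ranked 56 of 61, 53 of 64, 49 of 63 and 60 of 68 in the 4 KO libraries with reads, near the end of the list of genera.

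The detections after re-separation lay near the limit set by depth. The KO libraries of that time were deeper than all KO weaning libraries, and thinned to the smallest library, 10491 reads, they would hold about 1 read each: 1.00, 2.04, 1.32 and 0.848 expected reads in libraries 21, 23, 24 and 25, and 0.713 in library 26. The expected number of libraries with at least 1 read at that depth was 2.93 in KO and 0.537 in WT, against 5 and 0.728 at weaning. At the lowest depth of the study the genus would thus be expected in fewer KO libraries than the 4 that held it. These expected numbers take 1 read as a detection, and could be lower still if counts of a few reads were removed earlier.

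The 2 variants with reads did not occur together. Row 4 of the table held 1824 reads, all at weaning, and row 563 held 35 reads, all after re-separation. No variant of any genus was shared between these 2 sets of libraries, so whether the 2 rows are the same organism cannot be told from the table. Each library with Akkermansia held 1 variant of it only.

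Of the 23 genera found in all 5 KO weaning libraries, Akkermansia was the only genus with 0 reads in all 10 co-housed libraries, and 20 of the 23 had reads in every co-housed library. Among the 45 genera found in at least 3 KO weaning libraries it was likewise the only one. Of these 45 genera, 3 had reads in at most 1 of 5 WT weaning libraries, Akkermansia among them. Incertae Sedis of the Ruminococcaceae was in 5 KO and 1 WT weaning libraries, and Blautia, a Lachnospiraceae genus that forms acetate, in 4 and 1. After co-housing those genera were in 4 KO and 5 WT libraries (Incertae Sedis) and in 5 and 5 (Blautia), where Akkermansia was in 0 and 0. These counts describe detection, which the depth of each library limits.

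Within Verrucomicrobiota, Akkermansia made up most reads in 4 of 5 KO weaning libraries and none in the co-housed libraries. The other variants of the phylum, 6 in all, were named as Puniceicoccaceae, a family known mainly from aquatic habitats. Akkermansia was 99.6%, 95.4%, 57.1%, 100% and 24.7% of the phylum's reads in KO weaning libraries 1, 2, 3, 4 and 5, and 28.6% in library 10 of WT. In the 9 co-housed libraries with reads of the phylum it was 0%. In re-separation libraries with Akkermansia reads it was 2.45% to 13.6% in KO and 7.69% in WT library 26.

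At weaning Puniceicoccaceae held 0.150% ± 0.274 in KO and 0.00785% ± 0.0118 in WT. Co-housed libraries held 0.290% ± 0.229 in KO and 0.256% ± 0.120 in WT. Re-separated mice had 0.165% ± 0.113 in KO and 0.0801% ± 0.0866 in WT (SD, n = 5 each). Its share in WT rose after co-housing, with a log2 fold change of 4.00 ± 1.35 against weaning (SE; edgeR quasi-likelihood test, adjusted p = 0.0190). In KO the corresponding value was 1.28 ± 1.18 (edgeR adjusted p = 0.453), which did not pass the test. The difference between KO and WT in this change did not pass either (edgeR adjusted p = 0.316). At weaning the WT share rested on 12 reads in 2 of 5 libraries.

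The mucus-linked genera compared with it, Helicobacter, Mucispirillum and Candidatus Arthromitus, did not show a genotype difference that passed the test at any time. In the fit over 72 genera, a KO and WT difference was called for 16 genera (22.2%) at weaning, for 1 (1.39%) in co-housed and for 0 (0%) in re-separated mice. These 72 include Akkermansia, whose own test is not given, so counts over all genera here and below may hold the genus itself. Of the 3 mucus-linked genera 0 were called by edgeR at each time, with 1 at an unadjusted p under 0.05 at weaning (Mucispirillum) and 0 at the later times. For the re-separation comparison with 0 calls over all genera by edgeR, 5 had an unadjusted p under 0.05, and limma-voom called 1. The median log2 fold change of the 3 genera was -0.37 at weaning, beside 0.00 for all 72 genera. The 72 include Intestinimonas, which had 0 reads at weaning in both genotypes and so stands at 0.00. Such a genus cannot be called at weaning.

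Helicobacter was abundant in every group. It held 7.73%, 7.50%, 2.51%, 1.68% and 8.43% in KO weaning libraries 1 to 5, against 1.80%, 6.85%, 7.48%, 2.07% and 2.83% in WT libraries 6 to 10, so the groups overlapped. Its log2 fold change, KO over WT, was -0.37 ± 0.57 at weaning, then 0.09 ± 0.57 in co-housed and 0.80 ± 0.58 in re-separated mice (SE; edgeR adjusted p = 0.676, 1.00 and 0.744). Co-housed libraries, all without Akkermansia, held Helicobacter at 10.4% ± 1.32 in KO and 9.32% ± 3.51 in WT.

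Mucispirillum, which belongs to the Deferribacterota and lives in the mucus of rodents, held 0.213%, 0.208%, 0.435%, 0.118% and 6.50% in KO weaning libraries 1 to 5, against 0.0809%, 0.307%, 0.279%, 0.0890% and 0.0874% in WT. Library 5 of KO alone set the KO mean of 1.50% ± 2.80, with a WT mean of 0.169% ± 0.114. The log2 fold change was 2.10 ± 0.87 (edgeR adjusted p = 0.0697), and without library 5 it was -0.23. It passed with library size scaling, with DESeq2 and without library 1 or 4.

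After co-housing Mucispirillum averaged 5.12% ± 3.18 in KO and 2.82% ± 1.98 in WT. It rose against weaning in KO by 2.20 ± 0.87 on the log2 scale (edgeR adjusted p = 0.0423) and in WT by 3.20 ± 0.90 (edgeR adjusted p = 0.0108). The WT call held in all 40 alternative settings. The KO call was lost in 12 of them, including leaving out any of libraries 1, 2, 3, 4, 13, 14 or 15. In KO, 23 of 72 genera (31.9%) were called between co-housing and weaning, and in WT 21 (29.2%), so 1 of 3 mucus-linked genera in each is close to that share. Between the same samples Akkermansia had 0 reads in co-housed KO libraries, against reads in 5 of 5 at weaning. Over the same groups Candidatus Arthromitus lay at 0.0348% ± 0.0221 (KO) and 0.0447% ± 0.0308 (WT) at weaning and at 0.0140% ± 0.0194 and 0.0215% ± 0.0252 after co-housing, and no change passed the test.

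The summed share of the 3 mucus-linked genera was 7.10% ± 5.18 in KO and 4.42% ± 2.85 in WT at weaning. It was 15.6% ± 3.41 in KO and 12.2% ± 1.99 in WT when co-housed, and 13.4% ± 6.18 in KO and 9.52% ± 2.23 in WT when re-separated. The differences between genotypes did not pass an exact two-sided permutation test at any time (p = 0.317, 0.0794 and 0.222 in that order of times, adjusted over the 3 times 0.317, 0.238 and 0.317). With 5 libraries against 5 the smallest p of this test is 0.00794.

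**Figure D3:**
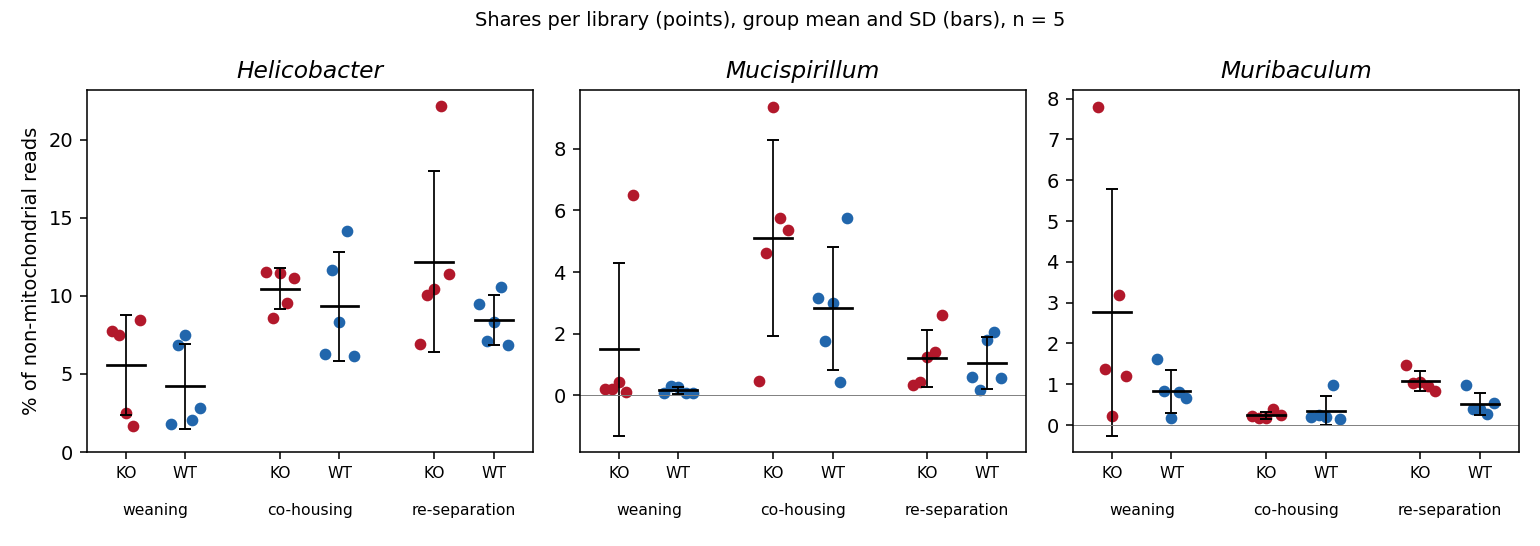
Shares of Helicobacter, Mucispirillum and Muribaculum in percent of non-mitochondrial reads, 1 point per library, with the group mean and SD (n = 5), KO (red) left of WT (blue) at each time. The KO weaning mean of Mucispirillum rests on 1 library at 6.50%, and Muribaculum is low in both genotypes after co-housing.

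Genera with members known to use mucin or other glycans were examined as a list of 12, of which 10 had reads and 9 could be tested. The torques and gnavus groups of Ruminococcus, known mucin degraders of the human gut, had 0 reads, and Bifidobacterium was too rare to test. At weaning 1 of 9 differed between KO and WT: Ruminococcus, which ferments plant fibre and mucin sugars, had 54 and 3 reads in KO libraries 2 and 3 and 0 in the other KO libraries, against 0 in all WT libraries, at least 2.92-fold higher (edgeR adjusted p = 0.0303). That call was lost under limma-voom and without any of libraries 2, 6, 7, 8 or 10. At the later times 0 of the 9 were called between genotypes by edgeR, where the unadjusted p was under 0.05 for 1 (Parabacteroides) in co-housed and for 0 in re-separated mice, and 0 were called in all 40 alternative settings.

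Against weaning, 4 of 9 glycan users fell in KO after co-housing, and 0 rose, where 9 of all 72 genera were lower and 14 higher. Muribaculum, a member of the Muribaculaceae that use plant and host glycans, changed by -3.80 ± 0.90 on the log2 scale (edgeR adjusted p = 0.00143). Parabacteroides, which ferments host and dietary sugars, changed by -3.90 ± 1.02 (edgeR adjusted p = 0.00270). Bacteroides, known for its many glycan-degrading enzyme systems, changed by -2.85 ± 0.74 (edgeR adjusted p = 0.00270), and unclassified Muribaculaceae by -1.95 ± 0.60 (edgeR adjusted p = 0.0108; lost under limma-voom and without library 4). The first 3 of these calls held in all 40 settings. The median over the list was -1.41, while that of all 72 genera was 0.74. In WT 3 of 9 fell, where 6 of all 72 genera were lower and 15 higher. They were Bacteroides (log2 fold change -2.41 ± 0.73, edgeR adjusted p = 0.0124; lost without library 9), unclassified Muribaculaceae (-2.04 ± 0.61, edgeR adjusted p = 0.0115) and Prevotellaceae UCG-001 (-1.82 ± 0.54, edgeR adjusted p = 0.0115), the last 2 called in all 40 settings. Prevotellaceae UCG-001 held 15.8% ± 4.96 in co-housed WT, against 32.1% ± 3.31 at weaning (SD, n = 5 each). In WT Ruminococcus was at least 2.44-fold higher (lost in 8 of 39 settings), and Muribaculum stood at -1.87 ± 0.84 (edgeR adjusted p = 0.0662). The difference between KO and WT in the change of Muribaculum did not pass its test (edgeR adjusted p = 0.316).

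After re-separation, set against co-housing, 4 of 9 glycan users rose in KO and 0 fell. Of all 72 genera 14 (19.4%) were called, 11 higher and 3 lower. The 4 glycan users are named next. These were Muribaculum (log2 fold change 2.75 ± 0.86, edgeR adjusted p = 0.0257, lost under scaling by library size and without library 12, 13 or 21), Parabacteroides (3.79 ± 1.02, edgeR adjusted p = 0.00971), unclassified Muribaculaceae (2.59 ± 0.62, edgeR adjusted p = 0.00300) and Bacteroides (1.99 ± 0.72, edgeR adjusted p = 0.0435, lost in 10 of 40 settings). In WT edgeR called 0 of 9, with 1 (Parabacteroides) at an unadjusted p under 0.05, and 1 of 72 (1.39%) in all. Of the 40 alternatives, the 2-group fit and those without library 19 or without libraries 1, 5, 11 and 19 called 1 to 3. The difference between KO and WT in the change did not pass its test for any of the 4 glycan users. Its edgeR adjusted p was 0.741 for Muribaculum, 0.906 for Parabacteroides, 0.643 for unclassified Muribaculaceae (unadjusted 0.0433) and 0.897 for Bacteroides.

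Muribaculum ranked first in likeness to Akkermansia over the first 20 libraries and over the last 10, but not over the 10 weaning libraries alone. Likeness was the Pearson correlation of log10 shares, with libraries at 0 reads set to a floor of 0.5 read. It is a description over libraries that share depth and composition, and 14 of the first 20 libraries stood at that floor. Of the last 10, 1 KO and 4 WT libraries stood at it, and the others held 5 to 11 reads. Likeness there thus mainly sets libraries with reads (4 KO and 1 WT) against those without. For Muribaculum likeness was 0.76 over the first 20 libraries, first of 62 genera, and 0.64 and still first without library 1. Over the 10 weaning libraries Blautia (0.78) and Gastranaerophilales (0.68) came before Muribaculum (0.67).

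After Muribaculum, the order of the other genera rested in part on library 1. Over the first 20 libraries next came unclassified Tannerellaceae (0.64), Bacteroides (0.53), Parasutterella (0.52) and Parabacteroides (0.50). Without library 1, Rikenella stood at 0.54 and Alloprevotella at 0.50, against -0.35 and 0.08 with it. Unclassified Tannerellaceae (0.44) and Parabacteroides (0.35) then fell to ranks 5 and 9, and Bacteroides (0.42) to rank 6. Parasutterella (0.47) kept rank 4. Over the 10 re-separation libraries Muribaculum (0.75, first of 61) was followed by Anaerotruncus (0.72), unclassified Puniceicoccaceae (0.55), Lactobacillus (0.53) and Intestinimonas (0.51).

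Among the mucus-linked genera, Helicobacter, Mucispirillum and Candidatus Arthromitus had -0.26, -0.35 and 0.12 in the first 20 libraries, the last 0.38 without library 1. After re-separation they had 0.43, 0.20 and -0.32. On centred log-ratios in place of log10 shares, Helicobacter ranked 3 of 61 in the re-separation libraries (0.66), behind Muribaculum (0.80) and Anaerotruncus (0.78).

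The values behind this likeness follow. In KO weaning libraries ordered by falling Akkermansia share (libraries 1, 4, 2, 5 and 3), Muribaculum held 7.81%, 3.19%, 1.37%, 1.21% and 0.212%. The order of the 2 genera was the same in these 5 libraries, which are too few for a correlation of their own. In WT weaning libraries 6 to 10, of which only library 10 held Akkermansia, Muribaculum held 1.62%, 0.843%, 0.180%, 0.816% and 0.656%. Libraries without Akkermansia could thus have as much Muribaculum as KO libraries with it.

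Group means of Muribaculum were 2.76% ± 3.02 in KO and 0.823% ± 0.520 in WT at weaning, 0.238% ± 0.0886 in co-housed KO and 0.350% ± 0.353 in co-housed WT, and 1.07% ± 0.245 in re-separated KO and 0.515% ± 0.279 in re-separated WT (SD, n = 5 each). The genotype difference did not pass the test at any time (edgeR adjusted p = 0.323, 0.785 and 0.744). In the same order of KO weaning libraries, Bacteroides held 16.5%, 5.95%, 9.11%, 2.02% and 9.05%, and Helicobacter 7.73%, 1.68%, 7.50%, 8.43% and 2.51%, neither in the order of Akkermansia.

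**Figure D4:**
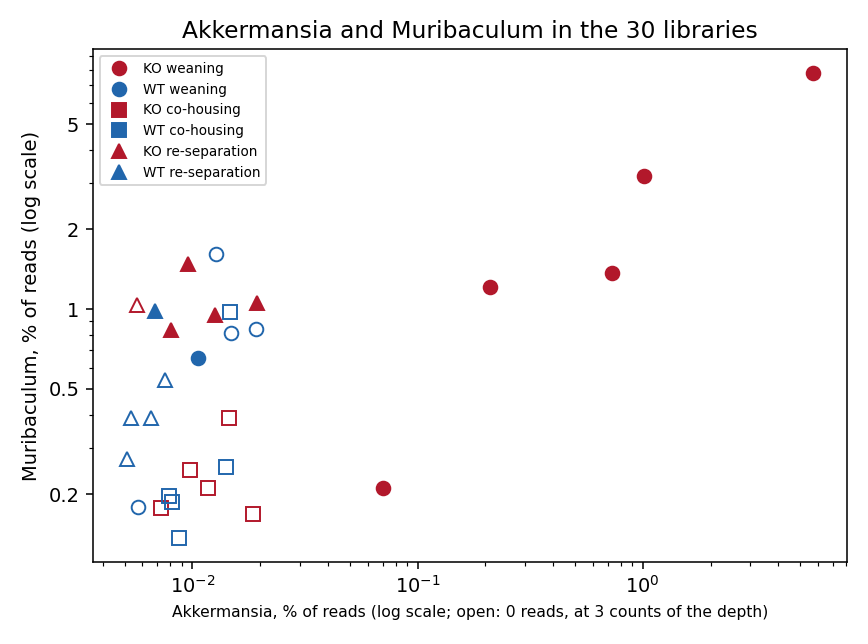
Share of Muribaculum against share of Akkermansia in the 30 libraries, both in percent of reads on log axes, with colour for genotype and shape for time. Filled marks have Akkermansia reads, and open marks have 0 reads and are placed at 3 counts of their depth, so their position along the horizontal axis shows depth only.

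Diversity was measured after Akkermansia rows were removed, so that the measures do not contain the genus itself. At weaning, where Akkermansia differed most between genotypes, the Shannon index was 3.31 ± 0.237 in KO and 3.23 ± 0.170 in WT (exact permutation p = 0.595). Scaled down to 10469 reads, KO libraries held 109.6 ± 33.1 expected variants and WT libraries 134.9 ± 29.7 (exact permutation p = 0.341). Weighted to the abundant variants, the inverse Simpson index was 9.55 to 13.2 in KO and 6.24 to 9.37 in WT. These groups did not overlap, with means of 11.3 ± 1.70 and 8.51 ± 1.32 (exact permutation p = 0.00794, the smallest the test can give; adjusted over the 3 times 0.0238). On genera in place of variants the difference was 2.18 and no longer passed (adjusted exact permutation p = 0.286). It was also lost when any 1 of WT libraries 6 to 10 was left out (adjusted exact permutation p up to 0.143), though the groups still did not overlap. With groups of unequal size, full separation need not give the smallest p, so the loss without a WT library says nothing of stability.

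After co-housing the Shannon index was 3.45 ± 0.420 in KO and 3.94 ± 0.194 in WT, and the expected number of variants 166.8 ± 37.7 and 217.8 ± 26.7 (exact permutation p = 0.0794 and 0.0556, adjusted 0.238 and 0.167). After re-separation these were 3.77 ± 0.340 and 3.86 ± 0.134, and 217.1 ± 33.4 and 247.4 ± 27.7 (exact permutation p = 0.595 and 0.167, adjusted 0.595 and 0.250). The inverse Simpson index was 12.4 ± 5.74 in KO and 18.2 ± 4.69 in WT when co-housed, a difference of -5.82 opposite in sign to that at weaning, and 17.5 ± 6.24 and 15.3 ± 3.65 when re-separated (exact permutation p = 0.119 and 0.484, adjusted 0.179 and 0.484). The differences in all 3 measures were largest in size after co-housing, where none passed the test after adjustment. Both genotypes had 0 Akkermansia reads then, and a link between the genus and diversity was not tested.

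Within KO at weaning, library 1, with the highest share of Akkermansia, had the lowest Shannon index and the fewest expected variants, while its inverse Simpson index of 12.8 was below only the 13.2 of library 2. Ordered by falling Akkermansia share, libraries 1, 4, 2, 5 and 3 had Shannon indices of 2.93, 3.24, 3.44, 3.45 and 3.51 and expected variants of 52.1, 123, 130, 112 and 131. The Shannon index ran opposite to Akkermansia in these 5 libraries, while the expected number of variants did not follow the same order. No coefficient is given, because fewer than 6 libraries of 1 genotype and time held the genus. The rule as planned asked for 6 libraries of 1 genotype and did not name the time. The KO libraries with reads, 5 at weaning and 4 after re-separation, were not joined, and these 2 sets share no variant. The depths of these libraries were 21133, 33115, 34075, 10491 and 17023 reads, and the part of depth in these values was not tested.

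**Figure D5:**
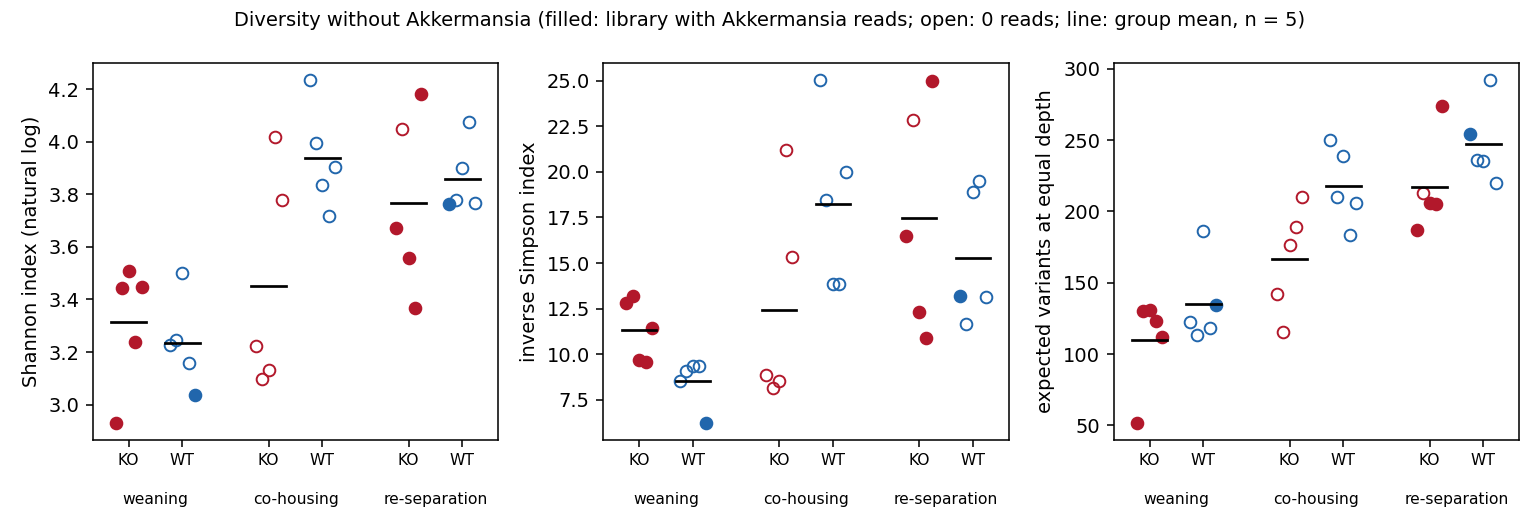
Shannon index, inverse Simpson index and expected variants at 10469 reads in each library, computed without Akkermansia, KO (red) left of WT (blue) at each time, with lines at group means (n = 5). Filled points are libraries with Akkermansia reads; library 1 of KO is the lowest point of the expected number of variants at 52.1.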

How the data were processed

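Stool DNA of 30 libraries was amplified over V4 of the 16S rRNA gene with 25 PCR cycles and read as 2 × 151 bases, per the labels' protocols. The authors deposited raw counts, whole numbers of reads for each variant in each library, without normalization. R 4.5.1 and limma are listed, per the submitters' processing notes. The deposited table is labelled as DADA2 output (a denoising tool). Its version and settings, like the reference taxonomy and filters, were not given in the sources used here. Variants come without sequences. Counts follow 16S copy number and PCR yield as well as cells.

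Variants were summed to 97 genera, or the lowest name above genus. Shares use reads without the mitochondrial variants. Genera with at least 10 reads in at least 3 libraries (72) were fitted with edgeR 4.0.16 (R 4.3.3; glmQLFit robust, glmQLFTest, TMMwsp, 1 coefficient per group, Benjamini-Hochberg adjustment at 0.05). The SE given with an edgeR log2 fold change is its absolute value divided by the square root of the test's F statistic. It is thus approximate. Alternatives used limma 3.58.1 (voom) and DESeq2 1.42.0, other scalings, filters and left-out libraries. The scripts were tested on simulated data. Single values were compared by the absolute difference of means over all 252 orderings of 5 against 5, in Python 3.11.15 with scipy 1.17.1, numpy 2.4.6 and pandas 2.3.3.

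Named beside Akkermansia were all mucus-linked genera, glycan users called in a comparison and the 5 most alike genera in each set. The genus, lists and tests were chosen with earlier results of these data known.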

Additional observations from a re-analysis of the deposited data

Results flagged for a closer look

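Within groups of 5 libraries, 48 sets of values other than Akkermansia shares were examined with Dixon's test for a library far from the others, and 5 were singled out. Chance singles out about 1 in 20 groups. In KO at weaning, library 1 had 52.1 expected variants without Akkermansia, with the nearest at 112. In the same group library 5 held 6.50% Mucispirillum, with the nearest at 0.435%. In WT at weaning, library 10 had an inverse Simpson index of 6.24, with the nearest at 8.50. Library 8 of that group had 186.2 expected variants, with the nearest at 134.3. In WT after co-housing, library 19 held 0.977% Muribaculum, with the nearest at 0.254%.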

How the results depend on the processing

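Akkermansia shares kept their order of genotypes under every denominator and the centred log-ratio. Leaving out 1 library moved group means to 0.506% to 1.91% (KO weaning), 0% to 0.00265% (WT weaning), 0.00755% to 0.0124% (KO re-separation) and 0% to 0.00170% (WT re-separation). Thinning to the smallest library left 0.537 expected WT re-separation libraries with reads, in place of 1.

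Called mucus-linked genera at weaning were 1 in place of 0 with library size or DESeq2, and 0 to 1 without single libraries. For co-housing against weaning in KO they were 0 in place of 1 with TMM, poscounts, library size, DESeq2 or the fit of 2 groups, and 0 to 1 without single libraries. Re-separation against co-housing in KO gave 1 in place of 0 without libraries 1, 5, 11 and 19.

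Called glycan users at weaning were 2 with library size, 3 with DESeq2, 2 with limma-voom and 0 with 2 groups, in place of 1 (0 to 3 without single libraries). They were 7 in place of 4 without libraries 1, 5, 11 and 19 for co-housing against weaning in WT (3 to 6 without single libraries). For re-separation against co-housing they were 2 in place of 4 with library size in KO (2 to 4 without single libraries), and in WT 1 with 2 groups and 3 without those 4 libraries, in place of 0 (0 to 2).

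Calls over all genera between genotypes were 7 in place of 16 at weaning with 2 groups (13 to 22 without single libraries). They were 2 with limma-voom and 0 with 2 groups after co-housing, in place of 1 (1 to 4), and 1 with limma-voom after re-separation. For co-housing against weaning they were 11 with 2 groups in KO, in place of 23 (14 to 28), and in WT 33 with library size and 35 without those 4 libraries, in place of 21 (16 to 32). For re-separation against co-housing they were 8 with library size in KO, in place of 14 (5 to 17, the lowest without library 21), and in WT 2 with poscounts, 3 with DESeq2, 3 with limma-voom, 6 with 2 groups and 11 without those 4 libraries, in place of 1 (1 to 5). Scaling by library size moved the median log2 fold change of all genera by 0.43 at weaning (16 higher and 8 lower calls, in place of 6 and 10), and by 0.92 for co-housing against weaning in WT (27 higher and 6 lower, in place of 15 and 6).

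The inverse Simpson difference at weaning was 2.18 on genera and 2.29 without those 4 libraries, and 2.25 to 3.27 without single libraries. Without the 4, adjusted exact permutation p was 0.0536, from the smallest unadjusted p that 3 KO against 5 WT libraries can give, so that loss says nothing of stability. Expected variants differed by -7.53 on genera after co-housing (adjusted exact permutation p = 0.0476). Without single libraries the Shannon difference after co-housing was -0.628 to -0.399 (adjusted exact permutation p = 0.0476 to 0.405). The difference in expected variants after re-separation was -44.6 to -19.2 (adjusted exact permutation p = 0.0476 to 0.341). Each of these 2 could thus pass with 1 library left out, though neither passed with all libraries. The cause was not tested. Correlations of Akkermansia with diversity were not run, since fewer than 6 libraries of 1 genotype and time held the genus. No paired analysis was possible because each library has its own number. For likeness, leaving out library 1 and using weaning libraries alone were chosen after seeing the data. Where Akkermansia had 0 reads, depth limits what can be said.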
